A study of Mus musculus with 10 samples.

Results

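Serpina3n, Serpina3i and Serpina3b are 3 paralogous genes of the Serpina3 cluster on mouse chromosome 12, and their transcript levels were examined on 10 arrays of heart RNA. They were selected on the age contrast itself. Each belongs to the 45 mRNAs that the study listed as most raised in aged hearts, out of 118 listed mRNAs and 22359 mRNA probes on the array. The age differences are therefore given as a description with no test, and only the covariation of the genes within an age group was tested. The 3m group comprised hearts of 5 male C57BL/6 mice aged 3 months and the 20m group hearts of 5 male mice of the same strain aged 20 months, with 1 mouse per array and no treatment in either group. Per the methods the age groups were bought from different suppliers, and an effect of supplier cannot be told apart from one of age. RNA came from pulverised heart tissue and not from sorted cells, so a change in the number of cells that make a transcript and a change in RNA per cell cannot be told apart in any value below.

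Serpins are protease inhibitors that present a flexible reactive centre loop as bait, are cut by the target protease and trap it in a covalent complex. Mice carry a cluster of Serpina3 genes at the place where humans have SERPINA3, which encodes the acute phase protein alpha-1-antichymotrypsin, and the reactive centre loops of the mouse paralogs differ. Serpina3n is the best known of them, a secreted inhibitor of serine proteases such as granzyme B and neutrophil elastase that rises with inflammation in liver, brain and other tissues, whereas Serpina3i and Serpina3b have been studied far less.

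The RefSeq table of mouse genes (GRCm38.p6) placed 14 Serpina3 genes within 302 kb, at chr12:104112724-104414334, of which 10 were protein-coding and 4 were pseudogenes. Serpina3b was the second gene of this order, Serpina3i the ninth and Serpina3n the last. The transcript behind the Serpina3b probe spanned chr12:104127996-104139545, that of Serpina3i chr12:104263122-104269372 and that of Serpina3n chr12:104406729-104414329, all on the + strand of GRCm38. Serpina3b and Serpina3i were 123 kb apart with 6 other Serpina3 genes between them, and Serpina3i and Serpina3n were 137 kb apart with 4 between them. Of the 14 genes, only these 3 had a probe that could be named here. Transcript levels of Serpina3a, Serpina3c, Serpina3f, Serpina3g, Serpina3j, Serpina3k, Serpina3m and the pseudogenes Serpina3d-ps, Serpina3e-ps, Serpina3h and Serpina3l-ps were not analysed.

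**Figure D1:**
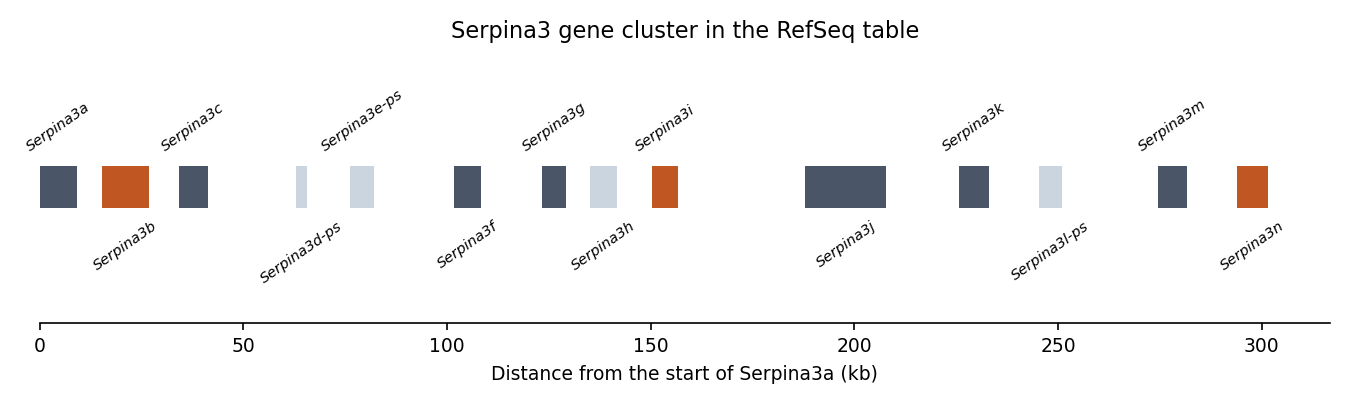
Map of the 14 Serpina3 genes along chromosome 12, with the distance from the start of Serpina3a in kb on the horizontal axis, the 3 genes examined in orange, other protein-coding genes in dark grey and pseudogenes in light grey. Serpina3b lies near the left end, Serpina3i in the middle and Serpina3n at the right end of the 302 kb.

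Each gene was read by 1 probe of 60 bases, and the probes are shown because paralogs this close could share a target. The whole Serpina3i probe and 30 bases of the other probes follow, with a polyadenylation signal hexamer (AATAAA) in capitals.
Serpina3n, bases 27 to 56: gtaggagcaaaagatcAATAAAcatataac
Serpina3i, bases 1 to 60: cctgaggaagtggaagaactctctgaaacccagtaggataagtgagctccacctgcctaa
Serpina3b, bases 1 to 30: tcagggcagagtagtaccttttctctcagt
The longest run of bases shared by any pair of the 3 probes was 6 on the same strand (Serpina3n and Serpina3i) and 5 on opposite strands. Binding of a probe to the full transcripts of the other Serpina3 genes, the other 2 examined here included, was not tested. The GC content was 38.3% for Serpina3n, 50% for Serpina3i and 53.3% for Serpina3b. AATAAA occurred 2 times in the Serpina3n probe and in neither of the other probes.

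The 200 bases upstream of a RefSeq transcript start of each gene are shown, from promoter sequences of GRCm38.p6, because the 3 genes were listed together. Capitals mark the longest run that all 3 share.
Serpina3n (chr12:104406508-104406707, + strand): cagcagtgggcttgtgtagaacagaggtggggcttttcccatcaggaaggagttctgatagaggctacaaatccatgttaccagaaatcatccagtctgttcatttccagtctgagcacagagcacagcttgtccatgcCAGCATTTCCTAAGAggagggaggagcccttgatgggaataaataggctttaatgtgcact
Serpina3i (chr12:104262922-104263121, + strand): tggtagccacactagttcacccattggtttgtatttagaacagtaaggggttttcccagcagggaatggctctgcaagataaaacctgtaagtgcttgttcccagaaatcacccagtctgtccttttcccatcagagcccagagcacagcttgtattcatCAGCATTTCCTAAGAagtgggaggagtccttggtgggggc
Serpina3b (chr12:104127796-104127995, + strand): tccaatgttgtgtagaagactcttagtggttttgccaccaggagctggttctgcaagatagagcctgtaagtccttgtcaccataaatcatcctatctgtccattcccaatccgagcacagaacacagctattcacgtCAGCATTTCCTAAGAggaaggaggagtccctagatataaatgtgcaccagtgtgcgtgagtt
The shared run, CAGCATTTCCTAAGA, is 15 bases long and begins at position -61 in Serpina3n, -40 in Serpina3i and -62 in Serpina3b, counted with that RefSeq start as 0. For Serpina3n this start, next to chr12:104406707, lies upstream of the first base of the probed transcript, chr12:104406729, whereas for the other genes the starts are the same. The RefSeq genes begin further upstream than these starts, at chr12:104406646 for Serpina3n, chr12:104263045 for Serpina3i and chr12:104127986 for Serpina3b. The run therefore lies within the annotated gene of Serpina3n and of Serpina3i, and upstream of that of Serpina3b. The run was found, on either strand, in 4 of 32851 promoter windows of the same length (250 bases before to 50 after the start). These were the windows of the 3 genes and of Serpina3c. Over these windows Serpina3n and Serpina3i were identical at 76.1% of aligned bases, Serpina3i and Serpina3b at 74.7%, and Serpina3n and Serpina3b at 74.3%. Serpina3n was closer to Serpina3c (93.5%) and Serpina3i to Serpina3f (82.9%) than either was to the other 2 genes examined. Windows of 8 Serpina3 genes were in the table.

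Sequence patterns of factors known from acute phase and stress responses were searched on both strands of the same windows. The STAT pattern TTCNNNGAA was present in Serpina3i, as TTCCCAGAA at position -102, and in 8.30% of all windows. The glucocorticoid receptor pattern, GNACA and TGTNC with 3 free bases between, was present in Serpina3n, as GCACAGCTTGTCC at position -78, and in 0.475% of all windows. The C/EBP pattern TTGCNNAA was present in Serpina3b at position -152 (10.8% of all windows), as was the TATA box TATAAA at position -28 (13.6%). The NF-kB pattern, GGG and CC with 5 free bases between, matched in all 3 genes, partly as overlapping matches on both strands, and in 50.8% of all windows. The only NF-kB match in Serpina3b lay after the start, at position 35. The AP-1 pattern TGANTCA was in none of the 3 and in 7.81% of all windows. Other Serpina3 windows held matches too. The STAT pattern was also in Serpina3f and Serpina3g, and the glucocorticoid receptor pattern, with the same bases, in Serpina3c. The C/EBP pattern was also in Serpina3f, TATAAA in Serpina3a, Serpina3c and Serpina3f, and the NF-kB pattern in Serpina3f, Serpina3g and Serpina3j. None of these patterns other than that of NF-kB was common to the 3 genes, and a match in sequence is a description of the window and not of a factor's binding.

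Serpina3n, the secreted protease inhibitor that is best known in inflammation, was bright on every array. Its normalised intensity on the log2 scale was 11.52, 11.18, 11.09, 10.99 and 10.60 in 3m replicates 1 to 5, and 14.21, 12.99, 13.50, 13.51 and 14.14 in 20m replicates 1 to 5. All aged hearts lay above all young hearts, by 1.47 between the lowest aged and the highest young heart. The means were 11.08 ± 0.33 (SD, n = 5) and 13.67 ± 0.51 (SD, n = 5), a log2 difference of 2.60 ± 0.25 (SE), or 6.04-fold. Before normalisation, the background-subtracted intensity was 1759 to 3165 in the 3m group and 6965 to 19233 in the 20m group.

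Serpina3i, a less studied member of the same inhibitor family, gave a dim probe. Its normalised intensity on the log2 scale was 5.14, 5.12, 5.29, 4.72 and 4.37 in 3m replicates 1 to 5, and 7.74, 6.34, 7.04, 7.18 and 8.35 in 20m replicates 1 to 5. The age groups did not overlap, with 1.05 between the lowest aged heart, replicate 2, and the highest young heart, replicate 3. The log2 difference was 2.40 ± 0.32 (SE), or 5.29-fold, from 4.93 ± 0.37 (SD, n = 5) to 7.33 ± 0.76 (SD, n = 5). The intensity before normalisation was 26.5 to 53.2 in the 3m group, where the spot was 2.37 to 4.22 times as bright as its local background, and 77.0 to 277 in the 20m group. The scanner software marked the probe well above background on all 10 arrays.

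Serpina3b, also a less studied member, lay at 5.56, 5.68, 6.14, 5.96 and 5.94 on the log2 scale in 3m replicates 1 to 5, and at 8.77, 7.25, 8.14, 7.97 and 8.60 in 20m replicates 1 to 5. Aged hearts were again all above young hearts, by 1.1 or more. The means were 5.85 ± 0.23 (SD, n = 5) and 8.14 ± 0.60 (SD, n = 5), which differed by 2.29 ± 0.26 (SE) on the log2 scale, or 4.89-fold. Its spot was 2.95 to 6.15 times as bright as the local background in the 3m group and 11.8 to 20.3 times in the 20m group. It too was well above background on all 10 arrays. The intensities of different probes depend on the probe as well as on the transcript, so the 3 genes were not ranked by level.

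**Figure D2:**
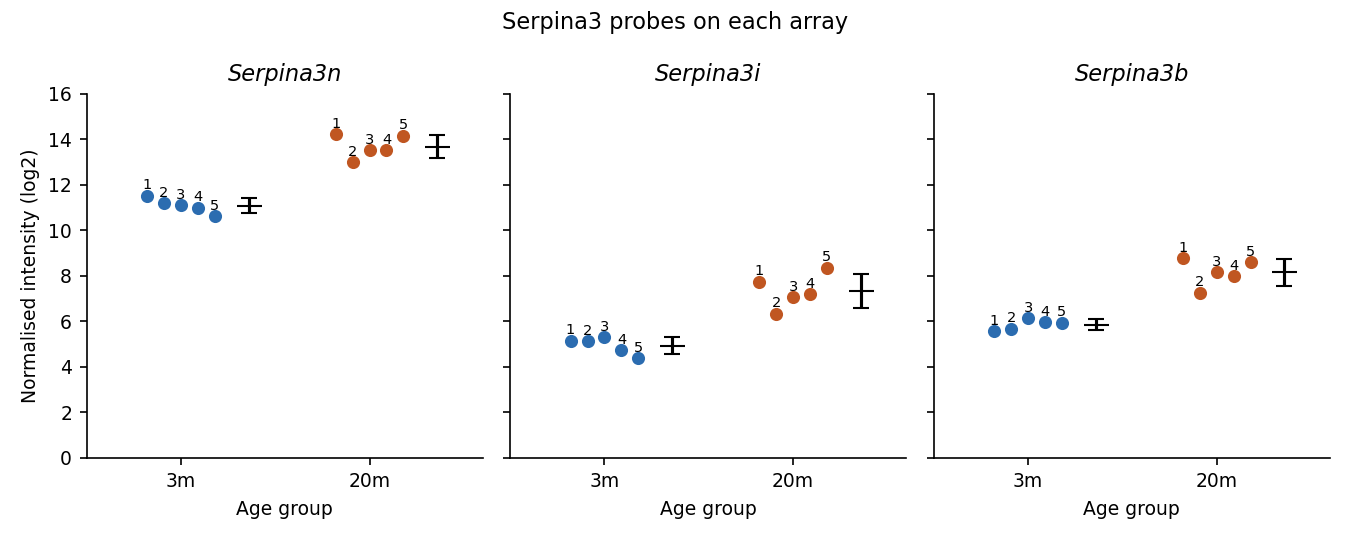
Normalised intensity (log2, vertical axis) of the Serpina3n, Serpina3i and Serpina3b probes in the 3m and 20m groups, with 1 point per array numbered by replicate and bars for the mean ± SD of 5 arrays. All 20m points lie above all 3m points in each panel, and 20m replicate 2 is the lowest aged heart in all 3.

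The aged hearts varied more than the young ones for each gene. The SD of the log2 values was 0.51 against 0.33 for Serpina3n, 0.76 against 0.37 for Serpina3i and 0.60 against 0.23 for Serpina3b, and these differences in spread were not tested. Among aged hearts, replicate 2 was the lowest and replicates 1 and 5 were the highest for all 3 genes. Among young hearts no such common order was seen. Serpina3n was highest and Serpina3b lowest in replicate 1, and replicate 5 was the lowest for Serpina3n and Serpina3i but not for Serpina3b.

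Over all mRNA probes, 669 of the 16720 detected were higher in the 20m group by limma, with an adjusted p below 0.05 and a log2 difference of 1 or more, which is 4.0%. On all arrays of the 20m group above all arrays of the 3m group were 8.27% of the detected mRNA probes. All 3 genes met both criteria, which follows from how they were selected. By log2 difference Serpina3n stood at position 28, Serpina3i at 34 and Serpina3b at 41 among the 669, whose median was 1.27, while the median over all detected mRNA probes was -0.05. The lowest difference among the 45 listed genes was 2.25, that of Vsig4, a complement receptor of tissue macrophages, and the highest among called probes outside the list was 2.21.

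Changes of the 3 genes were close to each other in size in the main setting. On each array the log2 value of one probe was subtracted from that of another, which cancels what moves all probes of an array alike. Serpina3n minus Serpina3i was 6.15 ± 0.22 (SD, n = 5) in the 3m group and 6.34 ± 0.33 (SD, n = 5) in the 20m group, a change of 0.19. For Serpina3n minus Serpina3b the difference went from 5.22 ± 0.51 to 5.53 ± 0.14, a change of 0.31, and for Serpina3i minus Serpina3b from -0.93 ± 0.48 to -0.81 ± 0.33, a change of 0.11. In all 3 pairs the age groups overlapped. These differences are made of the contrast that selected the genes and carry no test.

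The size of the change in the dim probes and the closeness of the 3 sizes depended on the setting. With the normexp setting, which starts from the median spot intensities, corrects the background in another way and adds an offset of 50 to each intensity, the log2 difference was 1.34 for Serpina3i and 1.59 for Serpina3b in place of 2.40 and 2.29, whereas that of Serpina3n was 2.60 under both. The Serpina3i intensities in young hearts, 26.5 to 53.2, are of the same size as this offset or below it. Under normexp the change of Serpina3n exceeded that of Serpina3i by 1.25 and that of Serpina3b by 1.00. Slides were told apart here only by the scan date in the file headers, and arrays of the same scan date are taken as 1 slide. On the 8 arrays of the slide that held both age groups, the differences were 2.81 for Serpina3n, 2.51 for Serpina3i and 2.12 for Serpina3b. There the change of Serpina3n exceeded that of Serpina3b by 0.69. With the slide as a term over all arrays this excess was 0.65, and with the GAPDH control ratio in the model it was 0.84, where the change of Serpina3i also exceeded that of Serpina3b by 0.78.

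**Figure D3:**
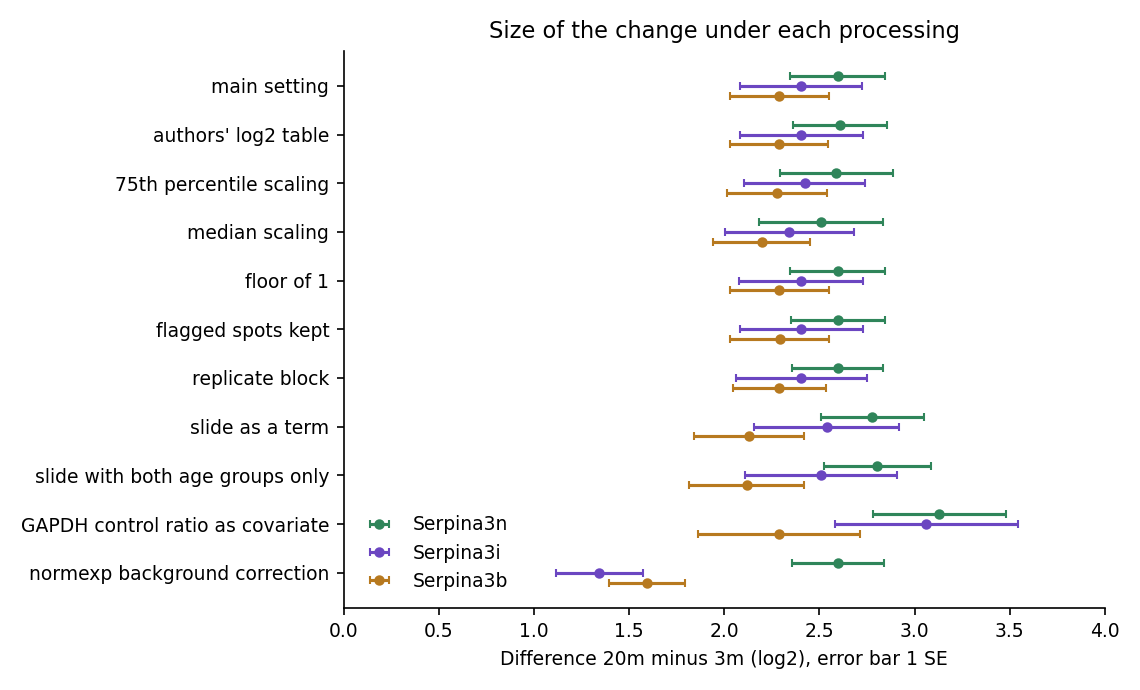
Difference between the 20m and 3m groups (log2, horizontal axis) of the 3 genes under the main setting and each alternative setting (vertical axis), with error bars of 1 SE from the limma fit. The values lie between 2.12 and 3.13 apart from those of Serpina3i (1.34) and Serpina3b (1.59) under normexp.

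The question whether the 3 paralogs rise and fall together from heart to heart was asked on the deviations of each array from its age group mean. The listing used an adjusted p and a fold change, so the size of these deviations entered the selection, but not whether those of different genes go together. Serpina3n and Serpina3i deviated together over the 10 arrays, though binding of Serpina3n RNA to the dim Serpina3i probe was not tested. In the 20m group, replicate 2 deviated by -0.68 for Serpina3n and by -0.99 for Serpina3i, and replicate 5 by 0.47 and by 1.02. Pearson's r was 0.902 (exact two-sided permutation within age groups, p = 0.00285, adjusted p = 0.0427 over 15 relations) and Spearman's rho was 0.939 (exact p = 0.00174, adjusted p = 0.0260). Without 20m replicates 1 and 2, the arrays farthest from the median in Serpina3n, r was 0.870 (exact p = 0.0181). With each array left out in turn, r stayed between 0.834 and 0.934, but the adjusted p ranged from 0.0260 to 0.169 and stayed under the limit only without 3m replicate 1 or 3m replicate 3. It was 0.0521 with the slide as a term and 0.0708 with the GAPDH ratio in the model.

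The pairs with Serpina3b did not pass the adjustment over the 10 arrays, and whether their correlations differ from that of Serpina3n and Serpina3i was not tested. For Serpina3n and Serpina3b, r was 0.641 (exact permutation p = 0.101, adjusted p = 0.304) and rho was 0.515 (exact p = 0.201, adjusted p = 0.410), and without 20m replicates 1 and 2 r was 0.0653. For Serpina3i and Serpina3b, r was 0.727 (exact permutation p = 0.0675, adjusted p = 0.304) and rho was 0.600 (exact p = 0.122, adjusted p = 0.366), and without 20m replicates 2 and 5 r was 0.327. Of the arrays left out 1 at a time, 20m replicate 2 lowered r the most, to 0.308 for Serpina3n and Serpina3b and 0.453 for Serpina3i and Serpina3b, whereas r of the latter pair was 0.717 without 20m replicate 1 and 0.675 without 20m replicate 5. Without 3m replicate 1 alone, r for Serpina3n and Serpina3b was 0.845. Arrays of 3m replicates 1 and 2 had another scan date than the other 8 arrays, taken here as another slide. On those 8 arrays r was 0.949 for Serpina3n and Serpina3b (exact permutation p = 0.00278, adjusted p = 0.03125), 0.933 for Serpina3n and Serpina3i (exact p = 0.00417, adjusted p = 0.03125) and 0.874 for Serpina3i and Serpina3b (exact p = 0.0208, adjusted p = 0.104). With the slide as a term over all 10 arrays, r was 0.909 for Serpina3n and Serpina3b (exact permutation p = 0.0111, adjusted p = 0.0833) and 0.871 for Serpina3i and Serpina3b (exact p = 0.0194, adjusted p = 0.0972), against 0.913 for Serpina3n and Serpina3i. The other slide held only these 2 young hearts and gives no value of its own.

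**Figure D4:**
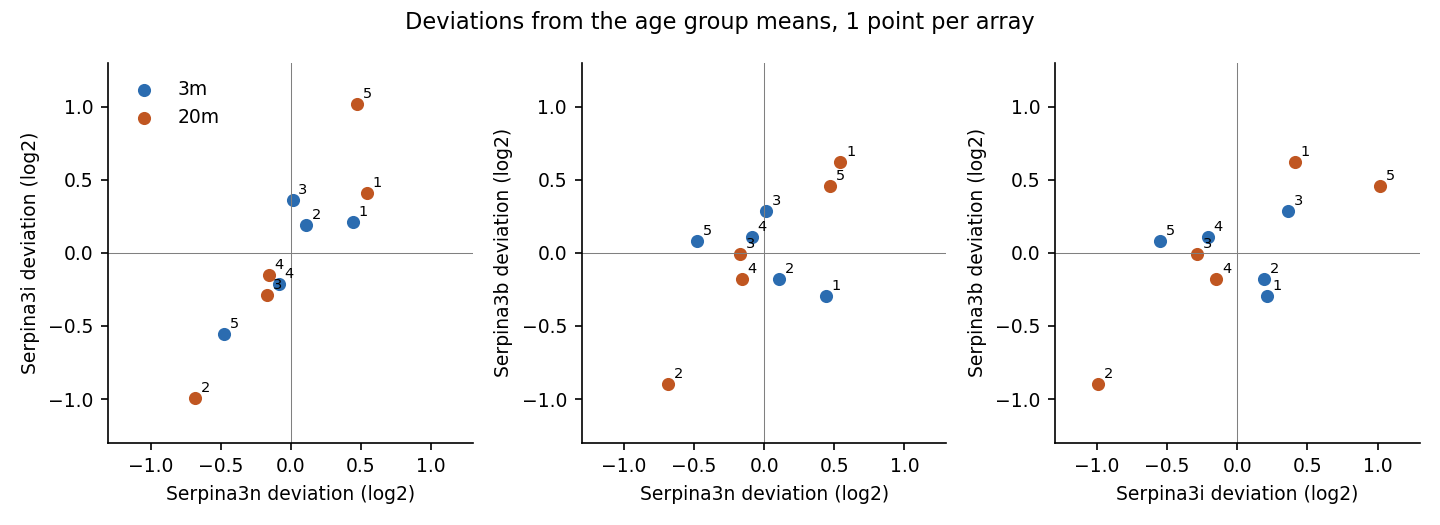
Deviation of each array from its age group mean (log2) for the 3 pairs of genes, with the 3m arrays in blue and the 20m arrays in orange, numbered by replicate. The points of Serpina3n and Serpina3i lie along a rising line (r = 0.902). In both panels with Serpina3b, 3m replicates 1, 2, 4 and 5 deviate in opposite directions for the genes of the pair.

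None of the 12 relations of the 3 genes with array measures passed the adjustment. The measures were the ratio of 3′ to 5′ probes of the control transcripts GAPDH and PGK1, the 75th percentile of the intensity and the share of probes well above background. By r the strongest was that of Serpina3n with the GAPDH ratio, with r = -0.549 (exact permutation p = 0.140, adjusted p = 0.350) and rho = -0.552 (exact p = 0.0960, adjusted p = 0.36). By rho it was that of Serpina3b with the share of probes well above background, with rho = 0.624 (exact p = 0.0480, adjusted p = 0.36) and r = 0.383 (exact p = 0.0788, adjusted p = 0.304).

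The same question was put to every detected mRNA probe with limma, as the slope of its log2 value on the Serpina3n deviation at fixed age. No probe passed among 16719 (0.0% at an adjusted p below 0.05), while 1050 (6.28%) had an unadjusted p under 0.05. Serpina3i had a slope of 1.25 ± 0.24 (SE), which was position 5 by p, with an adjusted p of 0.633. Serpina3b had a slope of 0.68 ± 0.29 (SE) at position 716, with the same adjusted p. The relation of Serpina3n and Serpina3i thus passed only among the 15 relations computed for the 3 genes and not over the whole array.

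As a description, Serpina3i stood at position 11 of 16701 mRNA probes by the r of its deviations with those of Serpina3n, and Serpina3b at position 938. Seen from Serpina3i, Serpina3n was at position 5 and Serpina3b at 240. From Serpina3b, Serpina3i was at position 78 and Serpina3n at 195. The median r over all these probes was 0.12 for Serpina3n, 0.05 for Serpina3i and 0.03 for Serpina3b. All values come from the same 10 arrays, so any array that stands apart enters each of them.

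Among the 488 probes with a gene name that were well above background on all 10 arrays, the 3 Serpina3 genes themselves not counted, those most like Serpina3n in their deviations were Vsig4, the macrophage complement receptor (r = 0.892), Kcnj3, a subunit of the cardiac acetylcholine-activated potassium channel (r = 0.840), and Klk1b8, a glandular kallikrein (r = 0.810). Vsig4 was 2.25 and Klk1b8 3.79 higher in the 20m group on the log2 scale, whereas Kcnj3 was lower (-1.63). Those most like Serpina3i were Foxd3, a forkhead transcription factor (0.868), Serf1 (0.804) and Fam45a (0.783). All were lower in the 20m group, by a log2 difference of -2.21, -1.65 and -1.52, whereas Serpina3i was higher. Those most like Serpina3b were Hfe, a regulator of iron uptake (0.735), Ccl8, a chemokine that attracts monocytes (0.709), and Cuedc2 (0.575), with log2 differences of -1.43, 2.99 and -1.45. Each probe named here was itself listed by the study as changed with age, so its direction was fixed by selection. Many probes without a name were closer. Among all 16701 mRNA probes Vsig4, Kcnj3 and Klk1b8 stood at positions 13, 48 and 68 for Serpina3n, Foxd3, Serf1 and Fam45a at 17, 61 and 93 for Serpina3i, and Hfe, Ccl8 and Cuedc2 at 65, 97 and 393 for Serpina3b.

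Of 89 protease inhibitor genes written as a list, 5 had a probe with a name, all from the list selected on age. Beside the 3 Serpina3 genes these were Gm5483, a predicted stefin-like gene, with 2.80 ± 0.31 (SE), and Wfdc21, a secreted protein with a whey acidic protein domain, with 3.57 ± 0.25 (SE) as log2 difference. Wfdc21 was well above background on 2 of 5 young and 5 of 5 aged arrays. No Serpina gene outside the cluster had a probe with a name. Of 48 protease genes, 4 had such a probe. The glandular kallikreins Klk1b4, Klk1b8 and Klk1b16 were 2.90, 3.79 and 4.12 higher in the 20m group, and Mmp13, a collagenase, was lower (-2.13). Of 49 genes of the acute phase and of the IL-6, STAT3 and glucocorticoid responses only Klf9, a glucocorticoid-induced transcription factor, had a named probe, and it was lower in the 20m group (-2.34 ± 0.28, SE). These genes were selected on the same contrast, so their directions are no support for one another.

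Markers of other cells were looked up in the same way. Every marker with a named probe given here was itself listed by the study as changed with age, so its direction was fixed by selection, and Chil3 and S100a8 passed the detection filter through the 20m group. Of 13 macrophage markers 2 had a named probe, Vsig4 (2.25 higher) and Chil3 (3.46 higher, well above background on 1 of 5 young arrays), and of 9 neutrophil markers Cxcr2 (2.69 higher) and S100a8 (2.72 higher, well above background on 1 of 5 young arrays). Of 9 hepatocyte markers only Cyp2b10 had one, at 3.30 higher, and of 8 lymphocyte markers only Cd28, at -1.39. Within age groups over the 10 arrays, the r with Serpina3n was 0.892 for Vsig4, 0.139 for Chil3, -0.592 for Cxcr2, -0.542 for S100a8, 0.424 for Cyp2b10 and 0.396 for Cd28. The part of such cells in the Serpina3 values was not tested. Of 7 endothelial markers only Tek had a named probe, which was not well above background on any 20m array. No cardiomyocyte, fibroblast, mural or adipocyte marker had a named probe, so the tissue label could not be checked on its defining genes.

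The arrays themselves differed between the age groups in RNA controls. The log2 ratio of 3′ to 5′ probes was 1.70 to 2.17 in the 3m group and 2.33 to 3.06 in the 20m group for GAPDH, and 8.04 to 8.64 and 8.98 to 9.27 for PGK1, with no overlap in either. Fitted with the GAPDH ratio, the difference was 3.13 ± 0.35 (SE) for Serpina3n, 3.06 ± 0.48 (SE) for Serpina3i and 2.29 ± 0.43 (SE) for Serpina3b. Because the ratios do not overlap between the age groups, this fit cannot tell an effect of RNA quality apart from one of age. Over the detected mRNA probes, arrays of the same age correlated at 0.966 to 0.995 and arrays of different age at 0.919 to 0.975. No spot was saturated and the 3 probes carried no outlier flag on any array.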

How the data were processed

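Total RNA of 10 hearts was hybridised to 10 1-colour Arraystar mouse lncRNA arrays (Agilent). The authors deposited scanner intensities per spot, background-subtracted by Agilent Feature Extraction and not normalised between arrays, and a table of quantile-normalised log2 values. The labels name version 9.1 of that software, the file headers 11.0.1.1. The detection flags deposited beside the intensities were used as given.

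Here outlier spots were dropped, and the intensities of 60641 probes were quantile-normalised, floored at 5 and log2-transformed. Probes marked well above background on 5 or more of the 10 arrays were kept (16720 for mRNAs) and fitted on age with limma 3.58.1 in R 4.3.3, with Benjamini-Hochberg adjustment within mRNA probes. The fits were tested on simulated data with independent noise and larger slopes than those found for the 3 genes. Whether the fit finds slopes of the size seen here was not tested. Covariation was tested on deviations from age group means by exact permutation within age groups (14400 arrangements, smallest possible p = 6.94e-05), with adjustment over 15 relations. Permutations used numpy 2.4.6 in Python 3.11.15, tables pandas 2.3.3, and plots matplotlib 3.10.9.

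The files name no genes. The probe of each gene is the 1 probe whose Student t-test on the deposited log2 values equals the gene's listed entry. This held for all 118 listed mRNAs, and all 73 with a known probe sequence were matched to that probe. In all, 735 mRNA probes had a name. Columns of the authors' own p-values and fold changes served this identification only. The 3 genes and all gene lists were chosen with earlier results of these data known. Named are the 3 genes, per gene the 3 named probes most like it in deviation, members of the gene lists and other Serpina genes with a named probe, and Serpina3 neighbours.

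Alternatives were 75th percentile and median scaling, the deposited log2 table, normexp, a floor of 1, flagged spots kept, other detection filters, a Student t-test, slide, GAPDH ratio or replicate number in the fit, 1 slide alone, and each array left out. Replicates were separate mice, and slides were inferred from scan dates. The number of arrays, and background for dim probes, limits precision.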

Additional observations from a re-analysis of the deposited data

How the results depend on the processing

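The age difference of all 3 genes kept its direction under each alternative run for it (scaling, deposited log2 table, normexp, floor, flagged spots, slide, GAPDH ratio, replicate block and arrays left out). With the GAPDH ratio in the model it was 3.13 for Serpina3n and 3.06 for Serpina3i, and with normexp background correction 1.34 for Serpina3i and 1.59 for Serpina3b. The change of Serpina3n exceeded that of Serpina3i by 1.25 with normexp and that of Serpina3b by 1.00 with normexp, 0.69 on 1 slide alone and 0.84 with the GAPDH covariate, where the change of Serpina3i also exceeded that of Serpina3b by 0.78. The normexp setting changed the starting intensities, the background correction and the offset of 50 together, and these were not separated. The cause of any of these shifts was not tested. Leaving out 1 array at a time, the difference ranged from 2.46 to 2.76 for Serpina3n, 2.15 to 2.65 for Serpina3i and 2.14 to 2.51 for Serpina3b.

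The covariation of Serpina3n and Serpina3i (r = 0.902) had r = 0.913 with the slide as a term and 0.869 with the GAPDH covariate, with adjusted p = 0.0521 and 0.0708 (exact permutation). With the replicate number as a block r was 0.981 with exact p = 0.00833, the smallest that permuting 5 blocks allows, so its adjusted p of 0.125 over 15 relations does not bear on stability. With an array left out r ranged from 0.834 to 0.934. That of Serpina3n and Serpina3b passed on 1 slide alone (r = 0.949) and ranged from 0.308 to 0.845 with an array left out, and that of Serpina3i and Serpina3b from 0.453 to 0.811. The replicate numbers did not pair the mice. Deviations of same-numbered mice over detected mRNA probes correlated at -0.365 to 0.242, and the block left the differences at 2.60, 2.40 and 2.29, the probes called higher at 669 and those called lower at 1612 against 1613 without it.

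Probes called higher in the 20m group numbered 669 of 16720, or 247 with normexp and 577 to 760 with an array left out. Probes called lower numbered 1613, or 545 with normexp, 531 with the GAPDH covariate, 927 on 1 slide alone and 1249 to 1844 with an array left out. Probes that covaried with Serpina3n numbered 0 by limma (1050 at an unadjusted p under 0.05), and 1, the same unnamed probe, with 75th percentile and with median scaling. Signal over background was lowest for Serpina3i and Serpina3b in young hearts, at 2.37 and 2.95 times the local background.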
